A study of Homo sapiens with 6 samples.

Results

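The genes described here are the expressed ZNF zinc finger genes of a human kidney cell line, compared after depletion of the TET enzymes and after control siRNA. They were selected by symbol and by signal: a gene symbol of ZNF followed by a number and at most 1 letter, and a brightest probe set with a mean log2 signal of at least 10 over all 6 arrays, which is a geometric mean signal of 1024. Of 466 such genes with a probe set of their own, 156 reached that level and 310 did not, among 19775 genes measured by probe sets of a single gene. The mean over all arrays decided membership, so the levels are given as a description. For 6 of the 156 genes, ZNF793, ZNF449, ZNF266, ZNF443, ZNF75A and ZNF677, the mean log2 signal reached 10 in TET siRNA cells and not in control siRNA cells, so their higher group helped to admit them, and for 0 genes it was the other way round. The other 150 reached it in both groups.

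Expression was read on one-colour Affymetrix arrays in Flp-In T-REx 293 cells, a HEK293 derivative built for placing a transgene at a fixed site. In the TET siRNA group, 3 clones had received siRNAs against TET1, TET2 and TET3 together, and in the control siRNA group the same 3 clones had received a pool of siRNAs with no target. RNA was taken 96 h later in both groups, and every clone carried an inducible GFP transgene that had not been switched on. Each clone gave 1 array per treatment, so a difference could be read within each clone. The p-values rest on the spread between these 3 clone pairs, which limma draws towards that of probe sets of similar signal. They therefore do not measure the spread of a gene's own clone pairs alone.

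TET proteins oxidise 5-methylcytosine in DNA, the first step in removing this mark. Most ZNF symbols name members of the largest family of human DNA-binding proteins, the C2H2 zinc finger proteins. Each finger of these proteins is a short fold held by a zinc ion and contacts a few bases of DNA. Many of them also carry a KRAB domain, which recruits the corepressor TRIM28 and the histone methyltransferase SETDB1, and such KRAB zinc finger proteins are known above all as repressors of transposable elements. Their genes stand in clusters of related copies, most of them on chromosome 19.

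The knockdown could be read in all 3 targets. The brightest TET1 probe set had signals of 448 to 685 in TET siRNA arrays and 3073 to 3470 in control siRNA arrays, which left 17.9% of the control level (limma with the clone as a block, log2 difference -2.48, SE 0.11). That of TET3 left 42.9% and that of TET2 46.8%, and in neither did the groups overlap. Of 10 genes listed as HEK293 markers 9 had a probe set of their own and 6 reached a mean log2 signal of 10, among them VIM and NEFL. The summed signal of the 9 was 66603 to 78949 in TET siRNA arrays and 77091 to 82301 in control siRNA arrays. Of 17 markers of other cell types 16 were measured and 2 reached that level, EPCAM and COL1A1. The sums over the 16 were 23133 to 24586 in TET siRNA arrays and 23659 to 25719 in control siRNA arrays. The blood markers PTPRC and CD14 and the endothelial marker CDH5 were dim, with mean log2 signals of 4.50, 3.86 and 3.70. Others of this list were brighter, with CD3E of blood at 6.42, PECAM1 of endothelium at 7.38, MBP of glia at 9.11 and CDH1 of epithelium at 9.39. Of the HEK293 list NEFM, PAX2 and LHX1 were below 10, at 8.08, 8.14 and 6.63. In all, 8 of the 9 HEK293 markers and 5 of the 16 others were bright enough to test. No marker of either list passed the limma threshold, and their part in the results below was not tested. The 3' to 5' signal ratio of GAPDH, a measure of RNA integrity, was 1.05 to 1.07 in TET siRNA arrays and 1.04 to 1.08 in control siRNA arrays.

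Of the 156 ZNF genes, 1 fell and 0 rose in TET siRNA cells. The gene that fell was ZNF678, which encodes a C2H2 zinc finger protein. The threshold was a Benjamini-Hochberg adjusted p under 0.05 over all 27306 tested probe sets, from limma with the clone as a block. Among all 7227 genes of the same level, the ZNF genes included, 0.623% rose and 1.29% fell, so the count of called ZNF genes is near that background. Over all tested probe sets the shares were 0.385% higher and 0.648% lower, 1.03% together. Without the clone in the fit 0 ZNF genes passed, and 0.0146% of all tested probe sets did. At an unadjusted limma p under 0.05 that fit had 11 of the 156 ZNF genes, 8 higher and 3 lower. Among the 7227 genes of the level it had 252 higher and 313 lower.

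ZNF678 (Entrez gene 339500) had signals of 3439, 2749 and 3042 in TET siRNA arrays of clones 1, 2 and 3, against 5447, 4978 and 4980 in the control siRNA arrays of those clones. All 3 TET siRNA arrays lay below all 3 control siRNA arrays. The means were 3077 ± 346 in TET siRNA cells and 5135 ± 270.0 in control siRNA cells (SD, n = 3 each), a level 1.67-fold lower in TET siRNA cells. As in any bulk measurement, fewer cells expressing a gene and less RNA per cell cannot be told apart. The log2 difference was -0.74 (95% interval -0.91 to -0.58, limma adjusted p = 0.00183), and it was -0.66, -0.86 and -0.71 in clones 1, 2 and 3. The limma adjusted p was 0.0832 without the clone in the fit and 0.320 with plain empirical Bayes. These settings called 4 and 0 probe sets in the whole table, against 282 in the main fit. Over all 9 alternatives for this gene the adjusted p was 9.99e-05 to 0.320, and 7 of them passed.

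The other 3 probe sets of ZNF678 were also lower in each of the clones. The next brightest had signals of 1278, 1228 and 1330 in TET siRNA arrays and 2200, 1900 and 1955 in control siRNA arrays (log2 difference -0.66, limma adjusted p = 0.00753). The one after it had 594, 995 and 780 in TET siRNA arrays and 1271, 1630 and 1690 in control siRNA arrays (-0.97, adjusted p = 0.00286). These 2 probe sets, too, had groups that did not overlap, and both passed the threshold. The dimmest, at 219, 101 and 137 in TET siRNA arrays against 290, 212 and 174 in control siRNA arrays, differed by -0.61 and did not pass (adjusted p = 0.309), with overlapping groups.

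**Figure D1:**
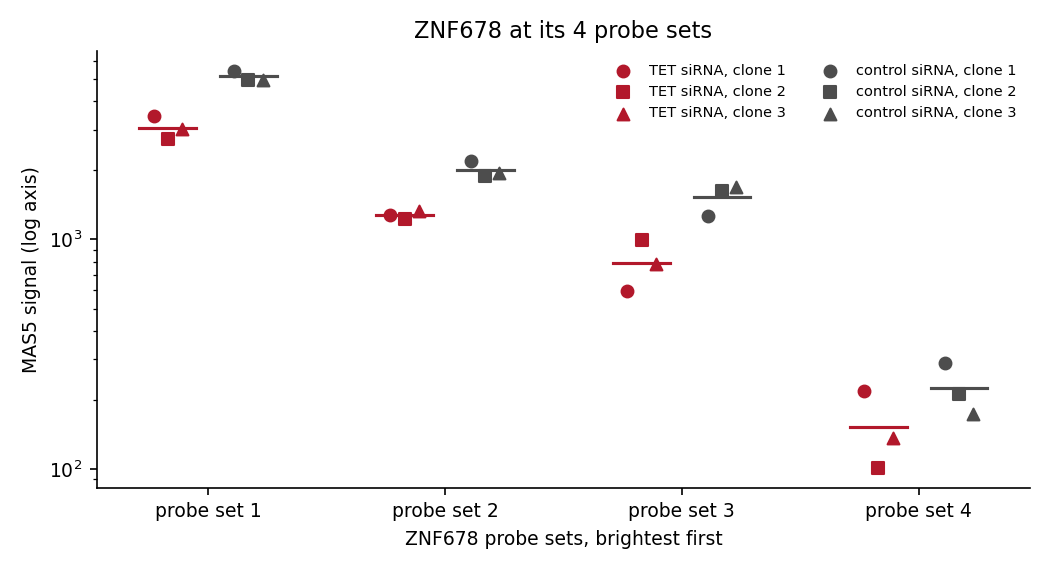
MAS5 signal (log axis) of the 4 ZNF678 probe sets, ordered from bright to dim, in TET siRNA (red, left) and control siRNA (grey, right) arrays. Symbols mark clones and bars the mean of 3 arrays. At the 3 brighter probe sets all TET siRNA values lie below all control siRNA values, and at the dimmest the groups overlap.

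Because TET enzymes act on cytosines in CpG dinucleotides, the CpG content of the promoters was set beside the differences. The RefSeq promoter table (GRCh38.p14) gives 300 bases around a gene's start, 250 before and 50 after, and matched 134 of the 156 ZNF genes. The first listed start was used where a gene had several, so a window need not lie at the outer end of the gene. The windows of ZNF607 and ZNF227 lie inside the RefSeq span of their genes. Shown 5′ to 3′ with each CG in capitals are the promoters of ZNF678, the gene that fell, of ZNF607, the gene with the smallest p among those with a positive difference, and of ZNF711, the brightest ZNF gene.
ZNF678 promoter (chr1:227563306-227563605, plus strand): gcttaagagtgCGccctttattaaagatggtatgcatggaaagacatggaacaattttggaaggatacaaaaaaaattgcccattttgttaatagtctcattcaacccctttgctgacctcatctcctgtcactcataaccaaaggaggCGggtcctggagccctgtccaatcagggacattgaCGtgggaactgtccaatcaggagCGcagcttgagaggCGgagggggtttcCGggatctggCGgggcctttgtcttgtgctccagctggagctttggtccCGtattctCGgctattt
ZNF607 promoter (chr19:37719139-37719438, minus strand): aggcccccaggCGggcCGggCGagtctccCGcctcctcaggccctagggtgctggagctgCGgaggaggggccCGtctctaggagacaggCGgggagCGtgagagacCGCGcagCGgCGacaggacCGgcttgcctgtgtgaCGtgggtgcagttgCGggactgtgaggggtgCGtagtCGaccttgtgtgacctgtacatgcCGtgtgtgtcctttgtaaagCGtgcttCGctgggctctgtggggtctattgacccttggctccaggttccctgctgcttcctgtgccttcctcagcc
ZNF711 promoter (chrX:85243741-85244040, plus strand): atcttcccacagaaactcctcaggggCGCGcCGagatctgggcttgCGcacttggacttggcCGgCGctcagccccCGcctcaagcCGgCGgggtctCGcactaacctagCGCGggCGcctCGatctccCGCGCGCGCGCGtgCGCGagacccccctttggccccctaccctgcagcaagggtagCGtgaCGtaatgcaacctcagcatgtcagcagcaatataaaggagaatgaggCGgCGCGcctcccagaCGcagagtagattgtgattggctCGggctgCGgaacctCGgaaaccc
The ZNF678 window holds 9 CG, that of ZNF607 20 and that of ZNF711 31. The CG motif is its own reverse complement, so both strands give the same count.

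The median of ZNF promoters was close to that of protein-coding genes. It was 23.0 CG in 300 bases with a range of 2 to 55, against 14 over all 27305 genes in the table and 22 over its 15843 protein-coding genes. At least 10 CG stood in 96.3% of ZNF promoters, in 73.0% of promoters of protein-coding genes and in 56.0% of all promoters, and at least 1 stood in 95.8% of all promoters. ZNF678, with 9, was thus among the 5 ZNF genes matched that held fewer than 10. By direction of the difference, the median CpG number was 23.0 for the 45 matched genes that were higher in 3 of 3 clones, 24.5 for the 16 that were lower in 3 of 3 clones and 23.0 for the other 73. Across these 134 genes, which share the same arrays and many of which are related in sequence, Spearman's rho between CpG number and log2 difference was -0.11.

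Though no ZNF gene rose past the threshold, small positive differences were more frequent than negative ones. The fitted difference was above 0 in 99 of 156 ZNF genes (63.5%), against 49.2% of the 7227 genes of that level. Their median was 0.06 on the log2 scale with an interquartile range of -0.03 to 0.15, against a median of -0.0024 over all genes of the level and 0.0070 over all 12318 tested genes. A difference above 0 in 3 of 3 clones was found in 51 ZNF genes (32.7%, against 20.1% of genes of the level), and one below 0 in 3 of 3 clones in 19 (12.2%, against 21.2%). The 3 TET siRNA arrays lay above all 3 control siRNA arrays in 19 ZNF genes (12.2%, against 6.68%) and below them in 8 (5.13%, against 7.91%). At an unadjusted limma p under 0.05, a looser limit that says nothing of a single gene, 25 were higher (16%, against 9.08%) and 9 lower (5.77%, against 9.8%). The sizes were small: 26 ZNF genes were higher by at least 0.2 (16.7%, against 8.45%) and 6 lower by as much (3.85%, against 7.86%). Among the 150 ZNF genes at the level in both groups 93 (62%) were above 0 with a median of 0.05, against 49% of the 7086 genes at the level in both groups. No test was made of the list as a whole.

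The shift was not the same in the 3 clones. The median difference of the ZNF genes was 0.06 in clone 1, 0.0009 in clone 2 and 0.08 in clone 3, while all genes of the level had -0.02, 0.02 and -0.0083 in these clones. In clone 2 the median of the ZNF genes thus lay below that of all genes of the level. With clone 1 left out 91 of 156 ZNF genes were above 0 (58.3%, against 51.1% of genes of the level), with clone 2 left out 111 (71.2%, against 47.4%), and with clone 3 left out 91 (58.3%, against 49.6%). The median signal of the ZNF genes on each array was 2058, 1990 and 2112 in TET siRNA arrays of clones 1, 2 and 3, against 2009, 1980 and 1942 in control siRNA arrays.

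**Figure D2:**
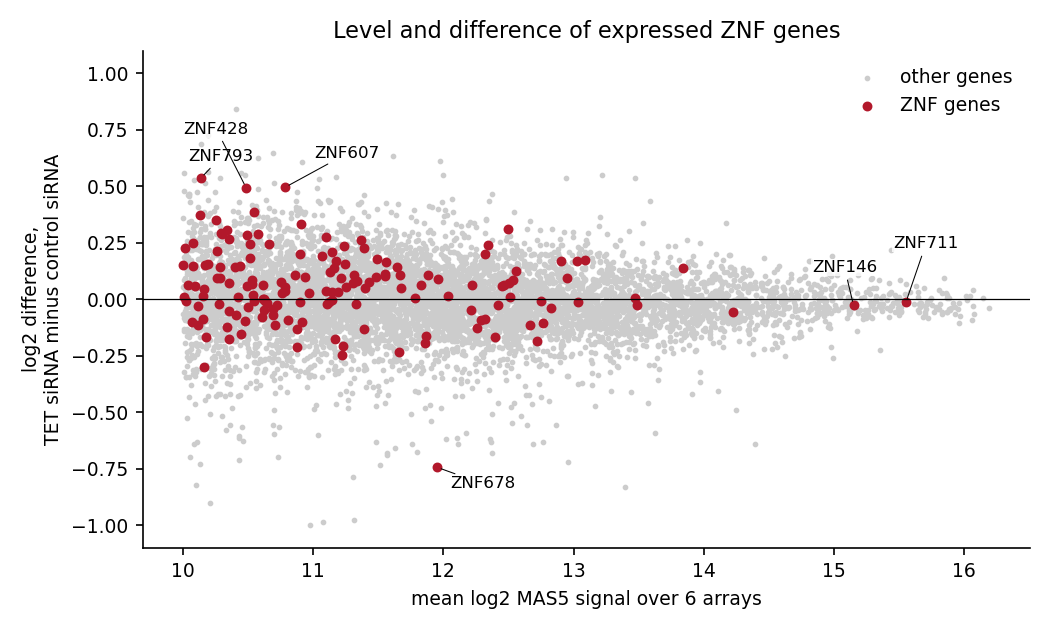
Mean log2 MAS5 signal over 6 arrays (horizontal) against the log2 difference, TET siRNA minus control siRNA (vertical), for the 156 ZNF genes (red) and the other genes of that level (grey); 1 gene, TET1, lies beyond the vertical axis. ZNF678 stands apart at -0.74, and most ZNF genes lie within 0.5 of 0.

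Among dimmer ZNF genes, which are not members, positive differences were also more frequent than negative ones. Of the 310 dimmer ZNF genes 219 were bright enough to test, of which 147 (67.1%) had a difference above 0. Of the 219, 0 passed the limma threshold, against 1.03% of all tested probe sets. At an unadjusted limma p under 0.05, 22 were higher (10%, against 8.61% of all 12318 tested genes) and 2 lower (0.913%, against 7.53%). The median of the 219 was 0.08, and over all 12318 tested genes 51.9% were above 0. That share includes the genes of level at least 10, of which 49.2% were above 0. It was thus higher among the dimmer tested genes. Within the expressed genes the 52 dimmest had a median of 0.08 and 36 above 0. The middle 52 had 0.03 and 31, and the 52 brightest had 0.05 and 32. All 6 genes that reached the level in TET siRNA cells only are among the 52 dimmest. Their positive sign came with the selection.

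Position was described next, since the family is clustered. RefSeq (GRCh38.p14) placed 63 of the 156 genes on chromosome 19 (40.4%) and 13 on chromosome 7. On chromosome 19 the difference was above 0 in 45 of 63 ZNF genes (71.4%) with a median of 0.07. Elsewhere it was above 0 in 54 of 93 (58.1%) with a median of 0.03. Of the 6 genes that reached the level in TET siRNA cells only, ZNF793, ZNF266, ZNF443 and ZNF677 lie on chromosome 19. ZNF449 and ZNF75A lie elsewhere. The positive sign of all 6 came with the selection. Of the other genes of that level on chromosome 19, 139 of 267 (52.1%) were above 0, with a median of 0.0057. By clone the chromosome 19 ZNF genes had medians of 0.10, 0.01 and 0.13 in clones 1, 2 and 3, so clone 2 again lay near 0. The difference between chromosome 19 and elsewhere was not tested.

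**Figure D3:**
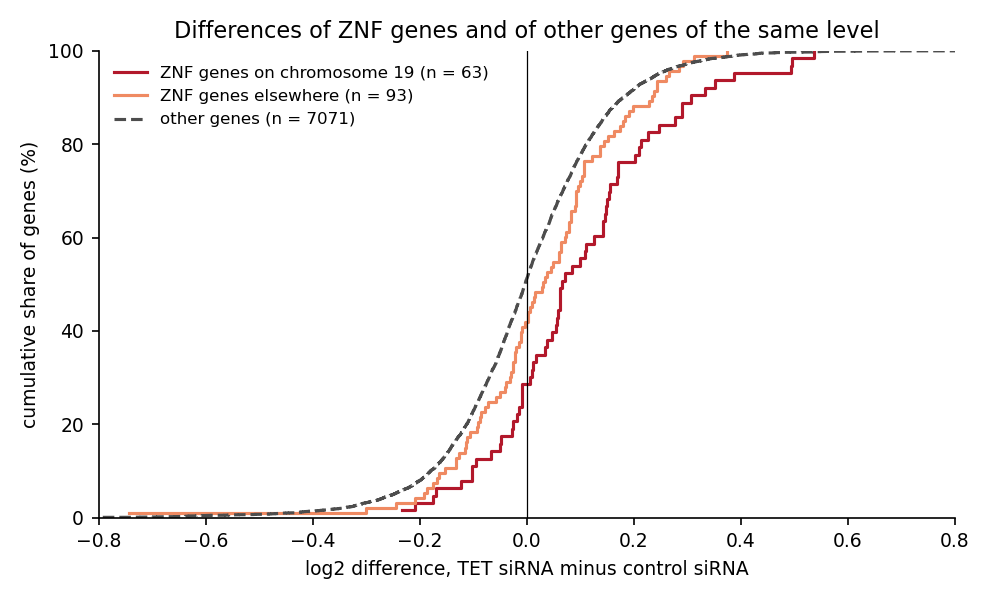
Cumulative share of genes (%, vertical) by log2 difference, TET siRNA minus control siRNA (horizontal), for ZNF genes on chromosome 19 (red), ZNF genes elsewhere (orange) and other genes of the same level (dashed grey). The chromosome 19 line lies to the right of the others, with 71.4% of its genes above 0. Its genes include ZNF793, ZNF266, ZNF443 and ZNF677, which reached the level in TET siRNA cells only. The horizontal axis ends at 0.8 on both sides.

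Genes that are direct neighbours, with no other protein-coding gene between them, did not form blocks of 1 direction throughout. There were 7 runs of 3 or more neighbouring members, with 22 genes. On chromosome 19 the run ZNF329, ZNF274 and ZNF544 had differences of 0.31, 0.06 and 0.28, and the run ZNF569, ZNF570 and ZNF793 had 0.11, 0.06 and 0.54. ZNF274 is a KRAB protein known to bring SETDB1 to the ends of other ZNF genes. Also on chromosome 19, the run ZNF234, ZNF226 and ZNF227 had -0.18, -0.17 and -0.03 at the brightest probe sets. ZNF226 was positive at its other tested probe sets, as given below. ZNF234 was at 0.14 in clone 1 and ZNF227 at 0.09 in clone 2. The remaining runs were mixed. On chromosome 12 ZNF26, ZNF84 and ZNF140 had -0.17, 0.08 and -0.05. Positive differences were found in 2 of 3 genes from ZNF25 to ZNF37A on chromosome 10 and in 2 of 3 from ZNF420 to ZNF585B on chromosome 19. From ZNF680 to ZNF273 on chromosome 7 they were found in 3 of 4. None of the 22 genes in the 7 runs passed the limma threshold, against 1.03% of all tested probe sets.

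The 10 ZNF genes with a positive difference and the smallest p missed the threshold, with limma adjusted p-values of 0.0562 to 0.189. Their differences were 0.26 to 0.54 on the log2 scale and positive in 3 of 3 clones for each. ZNF607, ZNF793, ZNF230, ZNF765, ZNF544 and ZNF101 lie on chromosome 19 and are known, as background and not from a count made here, as KRAB zinc finger genes. ZNF607 had signals of 1891, 2328 and 2095 in TET siRNA arrays against 1565, 1360 and 1544 in control siRNA arrays. The groups did not overlap, and the log2 difference was 0.50 (SE 0.11, adjusted p = 0.0562, and 0.0439 to 0.414 over 9 alternatives). ZNF793 had 1326, 1274 and 1483 in TET siRNA arrays against 1152, 928 and 767 in control siRNA arrays. Its difference was 0.54 (SE 0.14, adjusted p = 0.107), with clones at 0.20, 0.46 and 0.95. Its mean log2 signal was 10.41 in TET siRNA cells and 9.87 in control siRNA cells, so it is 1 of the 6 genes admitted through the higher group.

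ZNF230 had signals of 1889, 1646 and 1612 in TET siRNA arrays against 1237, 1460 and 1240 in control siRNA arrays (log2 difference 0.39, SE 0.11). Its groups did not overlap either, and the adjusted p was 0.120. ZNF765 had 2807, 1725 and 2076 in TET siRNA arrays against 2147, 1508 and 1555 in control siRNA arrays, so that its groups overlapped although each clone was higher (0.39, 0.19 and 0.42). ZNF544 differed by 0.28 (SE 0.08) and ZNF101 by 0.35 (SE 0.11), both with overlapping groups. In ZNF101 the other tested probe sets had 0.23 and -0.20.

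The other 4 of these genes are ZNF703, ZNF239, ZNF449 and ZNF428. ZNF703, a corepressor amplified in luminal breast cancer, had signals of 7116, 6067 and 6228 in TET siRNA arrays against 6589, 4109 and 5184 in control siRNA arrays. Its difference was 0.31 (SE 0.09) with the largest part in clone 2 (0.56, against 0.11 in clone 1 and 0.26 in clone 3). ZNF239, known as MOK2 and a binder of lamins, had close values in the clones, 0.24, 0.26 and 0.29. ZNF449, which carries a SCAN dimerisation domain, had 861, 1669 and 1439 in TET siRNA arrays against 576, 1233 and 1337 in control siRNA arrays (log2 difference 0.37). Its clone 1 was low under both treatments, and its mean log2 signal was 10.31 in TET siRNA cells and 9.94 in control siRNA cells, so it too was admitted through the higher group. ZNF428 lies, like ZNF607, on chromosome 19. It differed by 0.49 (SE 0.15), with 1.02 in clone 2 and 0.25 and 0.22 in clones 1 and 3.

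**Figure D4:**
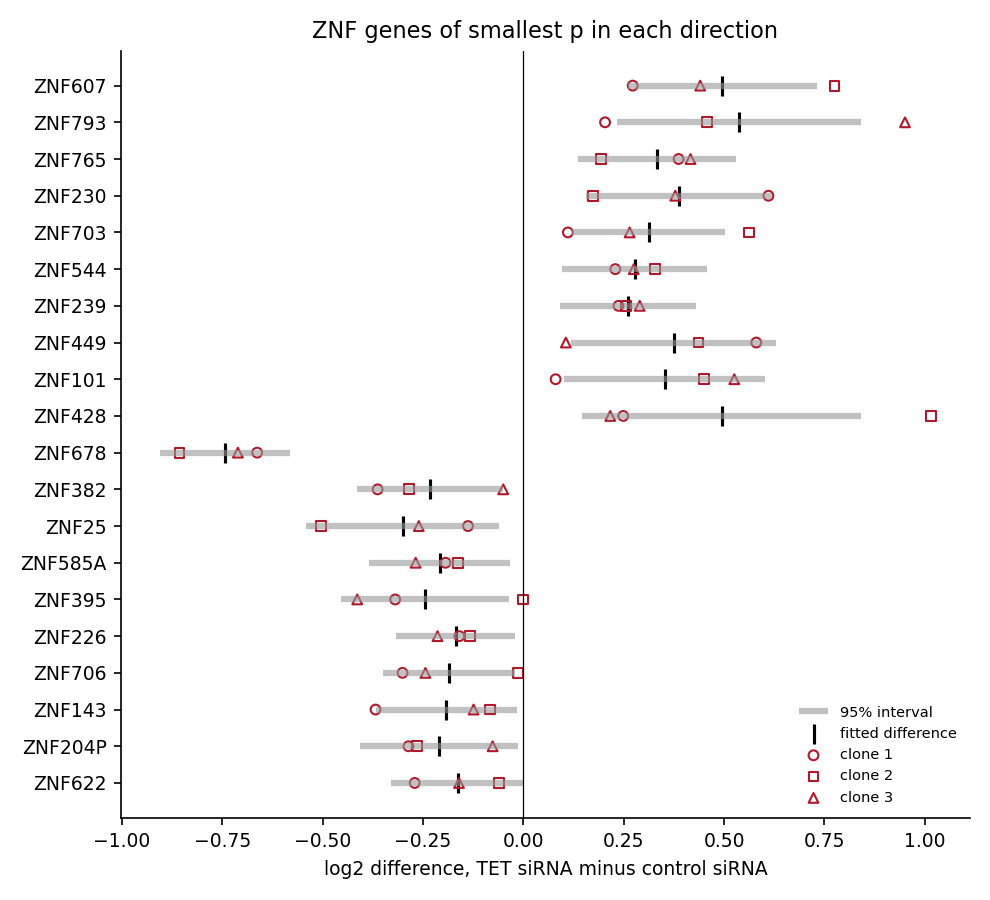
Log2 difference, TET siRNA minus control siRNA, of the 10 ZNF genes of smallest p in each direction (positive above, negative below). Black ticks are the fitted differences, grey bars their 95% intervals and open symbols the 3 clones. ZNF678 lies far from 0 in every clone, and the interval of ZNF622 reaches 0.

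Below ZNF678, the next 9 genes with a negative difference were closer to 0, from -0.30 to -0.16, and did not pass (limma adjusted p 0.223 to 0.349). ZNF143, an activator of small nuclear RNA genes and of many promoters, had signals of 3252, 3581 and 3578 in TET siRNA arrays against 4199, 3796 and 3900 in control siRNA arrays. All TET siRNA arrays lay below, at a difference of -0.19 (SE 0.08). ZNF622, which takes part in the maturation of the large ribosomal subunit, had 3318, 3630 and 3657 in TET siRNA arrays against 4003, 3787 and 4087 in control siRNA arrays (-0.16, SE 0.08). ZNF706, a very small zinc finger protein, differed by -0.19 and the hypoxia-inducible ZNF395 by -0.24, with almost no difference in clone 2 in either (-0.01 and -0.0011).

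ZNF382, a KRAB transcriptional repressor, had 2642, 3139 and 3203 in TET siRNA arrays against 3398, 3827 and 3316 in control siRNA arrays (-0.23, SE 0.08). ZNF25 differed by -0.30 at its brightest probe set and by -0.37 at the other. ZNF585A and ZNF226 depended on the probe set. ZNF585A had -0.21 at its brightest, with 2226, 2294 and 2195 in TET siRNA arrays against 2546, 2567 and 2644 in control siRNA arrays, but 0.12 and 0.31 at the others tested. ZNF226 had -0.17 at its brightest and 0.26 and 0.46 at the others tested. The pseudogene ZNF204P differed by -0.21, and its groups overlapped. It is 1 of 3 transcribed pseudogenes that the symbol rule admits, with ZNF271P and ZNF542P, while RefSeq lists the other 153 as protein coding.

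The 5 brightest ZNF genes did not pass at their brightest probe set. ZNF711, an X-linked gene whose product works with the histone demethylase PHF8 and whose loss causes intellectual disability, had signals of 38782, 56717 and 49700 in TET siRNA arrays against 45206, 49163 and 50615 in control siRNA arrays (log2 difference -0.01, 95% interval -0.21 to 0.18). ZNF146, a protein made of zinc fingers alone, had a difference of -0.03 (-0.22 to 0.17), ZNF664 one of -0.06 (-0.22 to 0.11) and ZNF227 one of -0.03 (-0.18 to 0.13). ZNF207, known as BuGZ, which binds BUB3 and the spindle, had 17358, 13463 and 15454 in TET siRNA arrays against 16856, 12609 and 12794 in control siRNA arrays. The difference was 0.14 (-0.02 to 0.29) with overlapping groups, and the 7 other tested probe sets of ZNF207 were between 0.13 and 0.35.

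Other probe sets of the same genes were used as a check. Of the 156 genes, 39 had a single probe set and 95 had at least 1 other tested one, 146 in all. The other probe set had the sign of the brightest in 87 of these 146. Where the brightest differed by at least 0.2 in size, 20 of 26 had its sign. These 26 include the other probe sets of ZNF678. The matching share over other genes is not given here. Of the 146, 5 passed the limma threshold, against 1.03% of all tested probe sets: the 2 of ZNF678 above and 1 each of ZNF302, ZNF451 and ZNF711. The last 3 genes were picked out for these values.

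At its passing probe set ZNF302 had signals of 4393, 3826 and 4043 in TET siRNA arrays against 3293, 2928 and 2881 in control siRNA arrays (log2 difference 0.43, limma adjusted p = 0.0192). The groups did not overlap, and the brightest probe set of the gene had 0.17 (adjusted p = 0.279). For ZNF451, a SUMO ligase, the passing probe set had 2993, 1874 and 2239 in TET siRNA arrays against 2213, 1451 and 1481 in control siRNA arrays (0.47, adjusted p = 0.0333), while the brightest had -0.09. For ZNF711 the passing probe set, dimmer than its brightest, had 12164, 19484 and 21478 in TET siRNA arrays against 16019, 30633 and 25064 in control siRNA arrays. Its difference was -0.42 (adjusted p = 0.0459), lower in each clone although the groups overlapped. Without the clone in the fit these 3 had adjusted p-values of 0.354, 0.769 and 0.828. Of the 156 brightest probe sets, 16 carried the suffix of sets that can cross-hybridise and 22 that of sets shared between transcripts, which in a family of related copies can mix signals. Among the 140 without the cross-hybridising suffix, 86 (61.4%) were above 0 with a median of 0.06.

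Differences between clones were about as large as those between treatments. The absolute log2 difference of a pair of single arrays, averaged over the 3 possible pairs, had a median over the ZNF genes of 0.14 between treatments within a clone and 0.15 between clones under control siRNA, and the difference between clones was the larger in 80 of 156 genes. The range over the 3 control siRNA arrays reached 1 in ZNF721 and ZNF449. ZNF721 had 7191, 4527 and 5545 in TET siRNA arrays against 8069, 3422 and 3978 in control siRNA arrays, so that clone 1 was high under both treatments and differed by -0.17, with 0.40 and 0.48 in the other clones. ZNF85 showed the widest disagreement between clones, at -0.04, -0.10 and 1.01.

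At the edge of the level that admits a gene, ZNF75A, ZNF182 and ZNF677 lay just inside with mean log2 signals of 10.01, 10.01 and 10.00, and ZNF587B, ZNF611 and ZNF268 just outside with 10.00, 9.99 and 9.99. The differences of the 3 inside were 0.23, 0.01 and 0.15 and those of the 3 outside -0.07, -0.06 and 0.15.

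The corepressors through which KRAB proteins act showed no called change. Of 41 listed corepressor and heterochromatin genes 38 were tested, 18 were above 0, the median was -0.0036 and 0 passed the limma threshold. Over all tested probe sets 1.03% passed, so 0 of 38 is near that share. At an unadjusted limma p under 0.05, 4 were higher (10.5%, against 8.61% of all tested genes) and 2 lower (5.26%, against 7.53%). TRIM28, the corepressor that binds KRAB domains, had signals of 2614, 2552 and 2469 in TET siRNA arrays against 2828, 2426 and 2594 in control siRNA arrays (log2 difference -0.04, SE 0.08). SETDB1, which methylates histone H3 at silenced copies, differed by 0.08 (SE 0.10). The genes of smallest p were the deacetylase HDAC3, at -0.41 (adjusted p = 0.0583), and SUMO3, at 0.27 (adjusted p = 0.0768).

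Among 13 further families with zinc finger or related symbols, 6 genes of 3 families passed the limma threshold and 0 of the other 10; with the corepressors, 195 genes of these lists were tested. Over all tested probe sets 1.03% passed. Of 37 tested ZBTB genes, which join zinc fingers to a BTB domain, 16 were above 0, 2 rose and 1 fell. ZBTB18 had signals of 11605, 9807 and 10756 in TET siRNA arrays against 8987, 8041 and 7936 in control siRNA arrays (log2 difference 0.36, adjusted p = 0.0276). ZBTB4, a binder of methylated CpG, had 2934, 2468 and 2781 in TET siRNA arrays against 2157, 2034 and 1975 in control siRNA arrays (0.41, adjusted p = 0.0475). ZBTB44 fell, by 0.40 on the log2 scale (adjusted p = 0.0256). In all 3 the groups did not overlap.

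The palmitoyltransferase family ZDHHC, whose finger does not bind DNA, had 21 tested genes with 11 above 0. ZDHHC2 fell by 0.47 (adjusted p = 0.00753) and ZDHHC6 rose by 0.40 (adjusted p = 0.0413). Of 7 ZFAND genes, whose AN1-type finger belongs to ubiquitin-linked proteins, 2 were above 0 and ZFAND1 fell by 0.51 (adjusted p = 0.00964). Without the clone in the fit 0 of these 6 genes passed.

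Families with no called gene are read beside the 51.9% of all tested genes that were above 0. In 6 of them most values were positive. The difference was above 0 in 10 of 14 ZFP genes (median 0.18, ZFP62 0.20, ZFP90 0.21), 11 of 14 ZSCAN genes (0.08, ZSCAN18 0.21, ZSCAN30 0.30) and 5 of 6 ZKSCAN genes (0.06, ZKSCAN2 0.21, ZKSCAN4 0.14). It was above 0 in 5 of 6 SP genes (0.22, SP4 0.24, SP3 0.20), 6 of 6 ZMYM genes (0.16, ZMYM1 0.26, ZMYM3 0.33) and 10 of 12 ZCCHC genes (0.06, ZCCHC12 0.21, ZCCHC24 0.20). In 4 others most values were negative: 3 of 12 KLF genes were above 0 (median -0.12, KLF2 -0.80, KLF9 -0.31), 5 of 12 ZC3H genes (-0.02, ZC3H10 -0.48, ZC3H6 -0.49), 1 of 3 ZMYND genes (-0.16, ZMYND11 -0.22, ZMYND19 -0.16) and 3 of 7 ZSWIM genes (-0.01, ZSWIM6 0.15, ZSWIM9 0.25).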

How the data were processed

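The authors deposited linear intensities, which are MAS5 signals per the submitters' processing notes; the sources used here give no MAS5 version. The values arrived scaled: trimmed by 2% at each end, every array had a mean of 999.85, and they were not normalized further. Scanner files and hybridisation batches were not used here, and precision is limited by there being 6 arrays.

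Of 54675 probe sets 62 controls were left out. Log2 signals of the upper 50% by mean (27306 probe sets, geometric mean at least 117) were fitted in limma 3.58.1 (R 4.3.3) with the clone as a block and trended, robust empirical Bayes, two-sided. All 156 ZNF genes were in this fit. P-values were adjusted over all 27306, SEs come from the fit and ± values are SDs. The labels name the same clones in both groups, so arrays are paired by clone. The deviations from the group mean correlated between arrays of a clone at 0.493, 0.234 and 0.236 (at most 0.219 between different clones).

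Gene names come from the platform annotation. Positions and promoters come from RefSeq (GRCh38.p14), which matched all 156 members by Entrez ID. The named genes are every member past the threshold, the 10 of smallest p in each direction, the 5 brightest, the 3 on each side of the level limit and, in each list, called genes or the 2 of smallest p. Genes named beside these (neighbours, clone extremes, the 6 that reach the level in 1 group, passing other probe sets, TRIM28 and SETDB1) were chosen for their position, role or values. The members, lists and tests were chosen with earlier results of these data known. Alternatives were the fit without the clone, other filters, quantile normalization, plain empirical Bayes, a pseudocount of 36.1, each clone left out, other probe set rules, other levels and other thresholds. The fit was tested on simulated data. Plots were drawn with matplotlib 3.10.9. Protein sequences were not used here.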

Additional observations from a re-analysis of the deposited data

How the results depend on the processing

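ZNF678 was lower under all 9 alternatives and lost its call without the replicate block (limma adjusted p = 0.0832) and with plain empirical Bayes (0.320). The count of lower ZNF genes was thus 0 in both. Over the whole table plain empirical Bayes called 0 probe sets and the fit without the block 4, against 282 in the main fit. The count of lower ZNF genes was also 0 when a gene's probe sets were averaged, where 1 gene in the whole table passed. The count of lower genes was 1 to 2 and that of higher genes 0 to 3 when a clone was left out (3 higher and 2 lower without clone 2). The whole table moved as well, with 684 probe sets called without clone 2, 108 without clone 1 and 63 without clone 3. The higher count was 1 with the upper 30% of probe sets (ZNF607), where 368 probe sets passed in the whole table. It was also 1 at a limma adjusted p under 0.1, where 646 passed. At an unadjusted limma p under 0.05, 25 higher and 9 lower ZNF genes passed, and 3925 probe sets in the whole table. The members' median was 0.03 to 0.08 over all alternatives, 0.04 with quantile normalization, and the number above 0 was 95 with quantile normalization and 91 to 111 with a clone left out, and 93 of 150 for genes at the level in both groups, settings added for this count after the data were seen. Genes of the corepressor and family lists called numbered 6, but 0 without the replicate block or with plain empirical Bayes, 1 when dim probe sets were kept, and 0 to 8 with a clone left out.

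Of 28 named ZNF genes 23 kept their direction in every alternative run for them. The others lie near 0 and turned sign with a clone left out: ZNF711 ranged from -0.12 to 0.090, ZNF146 from -0.095 to 0.10, ZNF664 from -0.11 to 0.025, ZNF227 from -0.082 to 0.022 and ZNF182 from -0.015 to 0.056. ZNF182 was -0.021 with quantile normalization. The causes were not tested. Of the 310 ZNF genes below the level 219 were bright enough to test. Dim probe sets, with signal near background, limit what can be seen below the level, most of all for the genes not tested.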
